A study of Mus musculus with 15 samples.

Results

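Fibroblast growth factor (FGF) signalling was examined at embryonic day 15.5 (E15.5) through a list of 39 genes chosen by name: the FGF ligands, their receptors, the klotho co-receptors, and the inhibitors and transcription factors that FGF signalling itself induces. Of these, 36 were measured, each by a single transcript cluster, which is the array's unit for 1 transcribed region, out of 65956 clusters tested. The other 3 (*Fgf12*, *Fgf20* and *Etv1*) lay only on clusters shared with other gene symbols and were given no value. The 15 arrays held 5 control XY testes and 5 control XX ovaries, both from wild type embryos, and 5 gonads labelled as testes of the dKO (Amh-/-; Inhbb-/-), called dKO XY here, which carry deletions of the genes for AMH, the anti-Müllerian hormone, and for the subunit from which activin B is built. The paper states that wild type and dKO mice were derived by crossing Amh+/- and Inhbb+/- single heterozygotes on a C57BL/6 background. Each array measured a whole gonad sample freed of the mesonephros, so fewer cells of a type and less RNA per cell cannot be told apart, and the deletions are inherited, not limited to a cell type.

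FGF ligands bind receptor tyrosine kinases together with heparan sulfate on the cell surface and pass the signal through RAS and the mitogen-activated protein kinases (MAPK) of the ERK class. ERK activity switches on *Etv4* and *Etv5*, which encode ETS transcription factors, and *Spry*, *Spred* and *Dusp6*, whose products dampen the same pathway, so the level of these genes is commonly read as a trace of recent FGF and ERK activity. In the fetal mouse testis, FGF9 acts through FGFR2 in Sertoli cells to keep *Sox9* on and *Wnt4* low, and it also acts on germ cells.

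Values are the deposited log2 signals, given in log2 units. These reached 19.93, although a 16-bit scanner cannot pass 16 on a plain log2 scale, so the scale is stretched by an unknown amount and a difference of 1 unit may stand for less than a doubling. Differences were tested with limma over all clusters. A gene is said to rise, fall or differ at a Benjamini-Hochberg adjusted p under 0.05, and to be called when the difference was also at least 1 unit. The median signal of 5222 negative control probe sets was 6.24. The antigenomic background controls had a lower median, 3.61, and the array medians, 5.17 to 5.33, also lay below 6.24. Of the 36 genes 19 had a mean below 6.24 in every group. Among them were 15 of 20 ligands, both klotho genes, *Spry3* and *Etv4*. The intracellular homologous factors *Fgf11*, *Fgf13* and *Fgf14* are counted as ligands here. The other 17 genes exceeded 6.24 in at least 1 group. The labels were checked first. *Amh* was 10.94 to 12.09 in control XY, 4.4 to 4.72 for dKO XY and 4.11 to 4.46 for control XX. *Inhbb* was 10.33 to 10.63, 9.17 to 9.38 and 9.06 to 9.28 in the same order. *Xist* reached 16.28 to 16.55 in control XX and at most 6.47 elsewhere, and the Y-linked *Kdm5d* was at least 9.25 in the XY groups and at most 5.51 in control XX. Sertoli cell markers (8 of 8 measured) averaged 9.62 to 9.87 over the control XY arrays and 6.68 to 7.13 over control XX, and granulosa cell markers (7 of 7) averaged 6.48 to 6.65 and 9.54 to 9.69.

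The sequences just upstream of 4 called genes are shown as examples: *Dusp6*, *Spred2* and *Etv5* for the feedback genes called higher in dKO XY than in the ovary, and *Fgfr2* for the receptor whose level lay between the controls. *Spry4* and *Fgf11*, also called, are not shown. They come from RefSeq (GRCm38.p6) and cover the 250 bases before the annotated transcript start, 5′ to 3′ on the gene's strand. Of the 36 genes 27 had such a window, 32 windows in all. Capitals mark, on either strand, CGGAA (a core of ETS sites), CCAAT (the CCAAT box), TGANTCA (AP-1), AAGGTCA (NR5A1) or TGTTTAC (FOX). These motifs were chosen with the sequences in view, and none overlapped another in the windows shown. A match describes the letters only.
*Dusp6* (chr10:99262981-99263230, plus strand): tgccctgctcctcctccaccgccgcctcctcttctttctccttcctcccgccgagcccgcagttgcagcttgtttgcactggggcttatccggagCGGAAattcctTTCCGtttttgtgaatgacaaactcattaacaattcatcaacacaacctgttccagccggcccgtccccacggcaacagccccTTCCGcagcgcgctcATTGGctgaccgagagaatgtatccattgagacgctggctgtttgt
*Spred2* (chr11:19924192-19924441, plus strand): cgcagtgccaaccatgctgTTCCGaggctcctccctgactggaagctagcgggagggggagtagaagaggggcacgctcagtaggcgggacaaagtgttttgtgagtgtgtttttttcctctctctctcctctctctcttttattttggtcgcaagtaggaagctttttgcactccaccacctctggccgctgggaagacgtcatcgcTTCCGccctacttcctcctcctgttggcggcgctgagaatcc
*Etv5* (chr16:22439571-22439820, minus strand, the start farther upstream of 2): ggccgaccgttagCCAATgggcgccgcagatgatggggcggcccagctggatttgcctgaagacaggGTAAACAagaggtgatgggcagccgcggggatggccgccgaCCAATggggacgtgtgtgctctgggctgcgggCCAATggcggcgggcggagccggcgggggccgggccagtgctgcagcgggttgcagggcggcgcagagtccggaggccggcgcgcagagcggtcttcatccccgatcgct
*Fgfr2* (chr7:130266809-130267058, minus strand): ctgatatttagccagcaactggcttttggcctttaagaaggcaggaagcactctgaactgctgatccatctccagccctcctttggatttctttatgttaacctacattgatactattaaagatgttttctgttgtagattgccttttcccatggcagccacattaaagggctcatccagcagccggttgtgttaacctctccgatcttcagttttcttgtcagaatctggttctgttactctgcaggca

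The *Dusp6* window held 3 CGGAA matches, beginning 155, 144 and 61 bases before the start, and a CCAAT box at 46 bases. The first 2 of the CGGAA matches face each other in the run CGGAAattcctTTCCG. The *Spred2* window held CGGAA at 231 and 42 bases, the *Etv5* window held 3 CCAAT boxes and 1 FOX match, and the *Fgfr2* window held none of the letters searched. CGGAA occurred in 7 of the 32 windows, compared with 25.2% of all 32851 RefSeq windows of this length, and CCAAT in 11 of 32, compared with 33.8%. TGTTTAC occurred in 2 (3.17% of all windows), TGANTCA in 1 (6.75%) and AAGGTCA in 0 (4.08%).

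The comparison of control XX with control XY asked how the pathway differs between the normal ovary and testis. Most feedback genes of the family (*Dusp6*, *Spry1*, *Spry2*, *Spry4*, *Spred2* and *Etv5*) were lower in the ovary, *Spry3* was higher, and *Spred1* and *Etv4* did not pass. Receptors and ligands moved in both directions. Of the 36 genes 2 were called higher in control XX (*Fgf11* and *Fgfr2*) and 3 lower (*Dusp6*, *Spry4* and *Etv5*), while 2.54% and 3.22% of all clusters were. At the adjusted p alone 4 were higher and 12 lower (10.8% and 13.4% of all clusters, 24.2% together, beside 5.76% called), with a median difference of -0.05 units beside -0.01 for all clusters. Among clusters above the negative control median in some group, 20.5% were higher and 25.2% lower at the adjusted p. Among the 7 inhibitors 5 were lower and 1 higher. The ovary and testis did not overlap in 14 of the 36 genes, 3 higher and 11 lower (8.38% and 9.79% of all clusters).

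*Dusp6* encodes the phosphatase that removes the activating phosphates of ERK. Its signal was 8.78, 8.67, 8.96, 8.83 and 8.62 on control XY arrays 1 to 5, 8.52, 8.43, 8.34, 8.71 and 9.01 in dKO XY, and 6.86, 6.94, 7.24, 6.86 and 7.36 in control XX. All ovaries lay below all XY gonads, and the XY groups overlapped. Control XX differed from control XY by -1.72 ± 0.13 units (SE, limma adjusted p = 4.21e-08) and dKO XY exceeded control XX by 1.55 ± 0.13 (limma adjusted p = 4.66e-07). Between dKO XY and control XY the difference was -0.17, with a 95% interval from -0.45 to 0.1 (limma adjusted p = 0.508). This interval excludes a fall as large as that of the ovary.

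*Spry4* encodes a Sprouty protein, an inhibitor between the receptor and RAS. Its signal was 7.83, 7.91, 7.7, 7.46 and 7.48 in control XY, 8.18, 8.07, 7.71, 8.16 and 8.09 for dKO XY and 6.47, 6.59, 6.03, 6.64 and 6.46 for control XX. The ovary was again below every XY array, with a difference from control XY of -1.24 ± 0.13 (limma adjusted p = 1.54e-06), and dKO XY exceeded it by 1.61 ± 0.13 (2.52e-07). In dKO XY 4 of 5 arrays lay above all control XY arrays and replicate 3 lay within them. The difference of 0.37 ± 0.13 between dKO XY and control XY did not pass (limma adjusted p = 0.0824). It passed in 3 of 15 fits that left out 1 array (replicate 3 of dKO XY, replicate 2 of control XY or replicate 3 of control XX, limma adjusted p down to 0.0343), with the second quantile normalization (0.0409), with array weights (0.025) and among brighter clusters only (0.0475).

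*Etv5*, an ETS factor needed in the testis for spermatogonial stem cells after birth, was 7.39, 9.02, 8.11, 7.77 and 7.7 in control XY, 8.63, 8.64, 8.53, 9.27 and 8.87 for dKO XY and 6.8, 6.7, 6.65, 6.92 and 6.73 for control XX. Control XY replicate 2 stood at the level of dKO XY, and the other 4 control XY arrays lay below every dKO XY array. *Etv5* was 2.03 ± 0.23 units higher in dKO XY than control XX (limma adjusted p = 1.07e-05), the largest difference of any of the 36 genes in this comparison. Control XX differed from control XY by -1.24 ± 0.23 (limma adjusted p = 0.000603), and that difference shrank to -0.98, under 1 unit, without control XY replicate 2. Between dKO XY and control XY it rose by 0.79 ± 0.23 (limma adjusted p = 0.0364), or by 1.05 without control XY replicate 2 (limma adjusted p = 0.00031), where it became the single called gene of the family in this comparison. That rise missed the threshold when replicate 1, 4 or 5 of dKO XY or replicate 1, 3, 4 or 5 of control XY was left out (limma adjusted p up to 0.0967).

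*Spred2* encodes a membrane-bound inhibitor of the RAS to RAF step. Its signal was 8.25, 8.97, 8.48, 8.55 and 8.44 in control XY, 9.32, 8.64, 9.01, 9.3 and 9.13 for dKO XY and 8.13, 7.84, 7.82, 8.23 and 7.97 for control XX. The ovary lay below both XY groups, which overlapped only through control XY replicate 2 and dKO XY replicate 2. The gene was called higher in dKO XY than control XX (1.08 ± 0.14, limma adjusted p = 5.34e-05), differed by -0.54 ± 0.14 between control XX and control XY (0.0103), and rose by 0.54 ± 0.14 in dKO XY over control XY (0.0223). The last result was lost when replicate 1 or 4 of dKO XY or replicate 1, 3 or 5 of control XY was left out (limma adjusted p up to 0.0655).

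**Figure D1:**
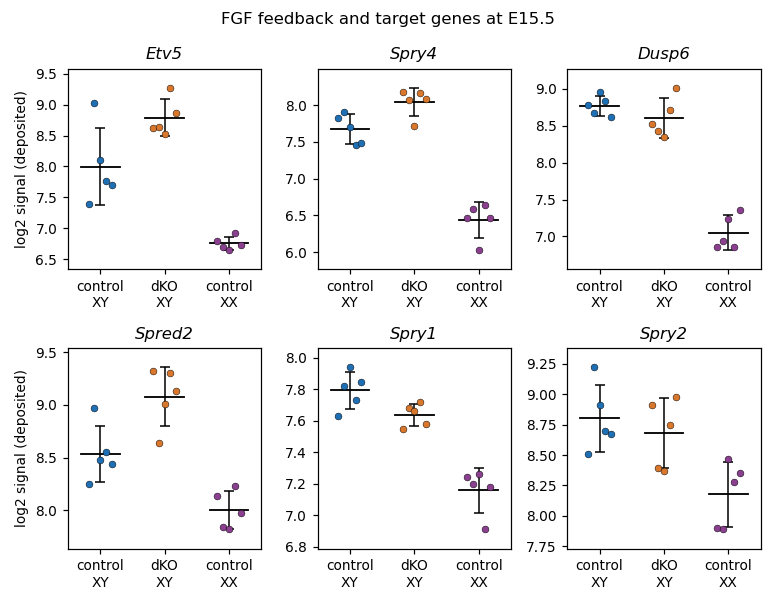
Log2 signal (deposited units, vertical axis, not starting at 0) of 6 feedback and target genes on the 5 arrays of each group. Points are arrays, lines are means and bars are 1 SD. The 5 ovaries lie below all XY arrays in *Etv5*, *Spry4*, *Dusp6*, *Spred2* and *Spry1*, and dKO XY has the higher mean of the XY groups in *Etv5*, *Spry4* and *Spred2* and the lower one in *Dusp6* (8.6 and 8.77).

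No remaining inhibitor passed between dKO XY and control XY. *Spry1*, best known for restraining GDNF and FGF signals in the developing kidney, was 7.63 to 7.94 in control XY, 7.55 to 7.72 for dKO XY and 6.91 to 7.26 for control XX, and *Spry2* had means of 8.8, 8.68 and 8.18. Both were lower in control XX than control XY (-0.64 and -0.62) and higher in dKO XY than control XX (0.48 and 0.5), and neither passed between dKO XY and control XY (-0.16 and -0.12, limma adjusted p = 0.284 and 0.75). The *Spry2* difference between dKO XY and control XX was near the threshold (limma adjusted p = 0.0453) and was lost in 9 of 15 fits that left out 1 array (dKO XY replicates 1, 4 and 5, control XY replicates 3 and 4, and control XX replicates 1, 2, 4 and 5, limma adjusted p up to 0.119). *Spred1* had means of 11.37 in control XY, 11.45 for dKO XY and 11.39 for control XX and passed in no comparison. *Spry3*, below the negative control median in every group, was higher in control XX than control XY by 0.36 (limma adjusted p = 0.0496), and this was lost in 12 of 15 fits that left out 1 array (limma adjusted p up to 0.123). *Etv4*, close relative of *Etv5*, was also below that median, at 4.36 to 4.92 over all arrays.

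Among the receptors, *Fgfr2*, the FGF9 receptor of fetal Sertoli cells, moved toward the ovarian level in dKO XY. Its signal was 8.65, 9.07, 8.78, 8.94 and 8.73 in control XY, 9.99, 9.74, 9.75, 9.52 and 9.51 for dKO XY and 10.46, 10.92, 10.53, 10.35 and 10.54 for control XX. The 3 groups did not overlap, with dKO XY midway. *Fgfr2* was 1.73 ± 0.12 units higher in control XX than control XY (limma adjusted p = 1.33e-08). It rose by 0.87 ± 0.12 in dKO XY over control XY (limma adjusted p = 0.000182), the largest rise of the family in this comparison, and differed from control XX by -0.86 ± 0.12 (7.36e-05). Its rise passed in all 15 fits that left out 1 array (0.8 to 0.93).

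*Fgfr1*, the receptor of most mesenchyme, was the receptor that fell. Its signal was 10.44, 10.43, 10.53, 10.54 and 10.33 in control XY, 9.89, 10, 9.64, 9.86 and 9.87 for dKO XY and 10.18, 10.15, 10.18, 10.07 and 10.25 for control XX. Every dKO XY array lay below every array of either control. It fell by 0.6 ± 0.07 units against control XY (limma adjusted p = 6.97e-05) and differed by -0.32 ± 0.07 from control XX (0.00689), while control XX differed from control XY by -0.29 ± 0.07 (0.00813). It was the 1 gene of the 36 below both controls at the adjusted p in each comparison, as were 0.409% of all clusters.

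The other 3 receptors passed in both comparisons with the ovary and, in the limma fit of all arrays, not between dKO XY and control XY. *Fgfr4*, a receptor with a main adult role in liver bile acid control, was 6.77 to 7.01 in control XY, 6.62 to 6.77 for dKO XY and 5.81 to 6.04 for control XX, where the median of negative controls was not reached. Control XX differed from control XY by -0.91 ± 0.07 (limma adjusted p = 4.97e-08) and dKO XY exceeded control XX by 0.73 ± 0.07 (1.86e-06). *Fgfrl1*, a receptor without a kinase domain, had means of 8.38, 8.17 and 7.86 and did not overlap between any 2 groups. Control XX differed from control XY by -0.51 and dKO XY exceeded control XX by 0.31, while its difference of -0.2 between dKO XY and control XY did not pass (limma adjusted p = 0.0846), though it did with the plain one-way contrast (0.0461) and among brighter clusters only (0.0481). *Fgfr3*, near the negative control median, exceeded control XY by 0.34 in control XX (limma adjusted p = 0.011) and differed by -0.33 between dKO XY and control XX (0.019), and the second of these was lost when replicate 5 of either group was left out (limma adjusted p up to 0.0564). In all, 2 receptors of 5 were higher and 3 lower in control XX than control XY, compared with 10.8% and 13.4% of all clusters. Among clusters above the negative control median in some group these shares were 20.5% and 25.2%. Between dKO XY and control XX 15.1% of all clusters passed the adjusted p in either direction.

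**Figure D2:**
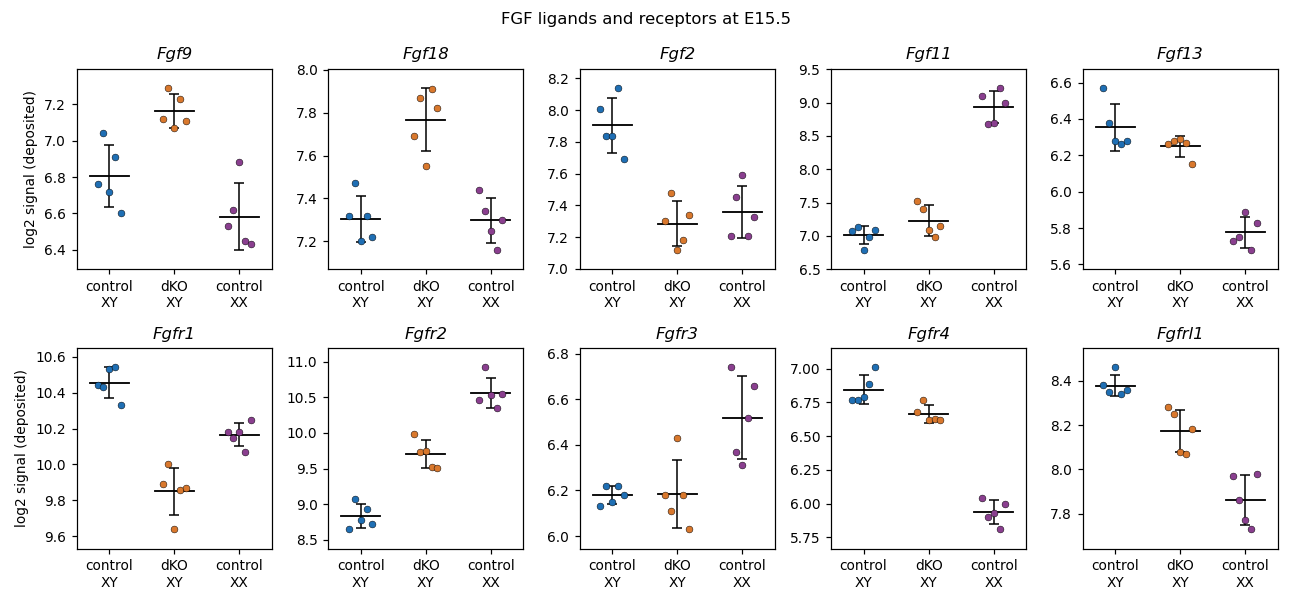
Log2 signal (deposited units, vertical axes not starting at 0) of 5 genes counted as ligands (upper row) and 5 receptor genes (lower row) on the 5 arrays of each group. Points are arrays, lines are means and bars are 1 SD. *Fgf9* and *Fgf18* are highest in dKO XY, *Fgfr1* is lowest there, *Fgfr2* stands between the controls (mean 9.7 between 8.83 and 10.56), and *Fgf11*, *Fgf13*, *Fgfr4* and *Fgfrl1* separate the ovary from both XY groups.

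Among the ligands, *Fgf9*, needed in the mouse for testis formation, was 6.76, 7.04, 6.72, 6.91 and 6.6 in control XY, 7.12, 7.29, 7.07, 7.23 and 7.11 for dKO XY and 6.53, 6.62, 6.88, 6.45 and 6.43 for control XX. Every dKO XY array lay above every control array, while the controls overlapped. It rose by 0.36 ± 0.1 units over control XY (limma adjusted p = 0.0259) and was 0.58 ± 0.1 higher than control XX (0.000504). The rise over control XY was lost when replicate 2 or 4 of dKO XY or replicate 1, 3 or 5 of control XY was left out (limma adjusted p up to 0.0736). The difference of -0.22 between control XX and control XY did not pass (interval -0.43 to -0.01, limma adjusted p = 0.125), though it did without replicate 3 of control XX (-0.3, 0.0277). *Fgf18*, a ligand known from bone and lung, gave 7.32, 7.47, 7.2, 7.32 and 7.22 in control XY, 7.69, 7.87, 7.55, 7.91 and 7.82 for dKO XY and 7.44, 7.34, 7.25, 7.16 and 7.3 for control XX. Its dKO XY arrays were likewise above all others, by 0.46 ± 0.08 over control XY (limma adjusted p = 0.00188) and 0.47 ± 0.08 over control XX (0.000788), and the first of these passed in all 15 fits that left out 1 array.

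*Fgf2*, a broadly acting ligand stored in the extracellular matrix, fell to the ovarian level. Its signal was 8.01, 7.84, 7.84, 8.14 and 7.69 in control XY, 7.3, 7.48, 7.12, 7.18 and 7.34 for dKO XY and 7.21, 7.45, 7.59, 7.21 and 7.33 for control XX. The dKO XY and control XX arrays overlapped and both lay below all control XY arrays. The fall from control XY to dKO XY was -0.62 ± 0.1 units (limma adjusted p = 0.000847), and control XX differed from control XY by -0.55 ± 0.1 (0.000563).

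The 2 intracellular FGF homologous factors above the negative control median, which bind sodium channels and do not activate FGF receptors, kept apart from the ovary. *Fgf11* was 7.08, 7.13, 6.79, 6.99 and 7.09 in control XY, 7.53, 7.4, 7.09, 6.98 and 7.15 for dKO XY and 9.1, 8.68, 8.7, 9.22 and 9 for control XX. It was 1.93 ± 0.12 units higher in control XX than control XY (limma adjusted p = 6.79e-09), the largest difference of the family between the controls, and dKO XY differed from control XX by -1.71 ± 0.12 (9.61e-08). Its difference of 0.22 between dKO XY and control XY had an interval from -0.05 to 0.48 (limma adjusted p = 0.35). *Fgf13*, on the X chromosome, was 6.26 to 6.57 in control XY, 6.15 to 6.29 for dKO XY and 5.68 to 5.89 for control XX, with control XX differing from control XY by -0.58 ± 0.07 (limma adjusted p = 1.13e-05). The 15 dimmer genes counted as ligands, among them the homologous factor *Fgf14*, had differences between dKO XY and control XY from -0.27 (*Fgf7*) to 0.17 (*Fgf17*). None of them passed there. They include *Fgf10* (mean 4.76 to 5.01), which differed by -0.26 between control XX and control XY (limma adjusted p = 0.0163), and the endocrine ligands *Fgf15*, *Fgf21* and *Fgf23*, whose klotho co-receptors *Kl* and *Klb* were as dim (means of 3.63 to 3.98). Nothing can be said at such signals about whether these genes were transcribed.

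Set together, the comparison of dKO XY with control XY had 0 of 36 genes called in either direction, with 0.567% of all clusters called higher and 1.62% lower (2.19% in all). The plain one-way contrast of the study's methods also called 0, and 13 of 36 genes had an unadjusted p under 0.05 (36.1%, compared with 22% of all clusters). At the adjusted p alone, 6 genes rose (*Fgfr2*, *Etv5*, *Spred2*, *Fgf18*, *Fgf9* and *Etv4*) and 2 fell (*Fgf2* and *Fgfr1*), compared with 4.41% and 6.02% of all clusters (10.4% in all), or 9.72% and 12.4% of the 25452 clusters that exceeded the negative control median in some group. The arrays of the groups did not overlap in 7 genes, 4 higher and 3 lower (4.26% and 4.59% of all clusters). The median difference was 0.04 units over the 36 genes and 0.01 over all clusters. *Etv4* (0.26, limma adjusted p = 0.0437) was the weakest of these, dim, and lost in 10 of 15 fits that left out 1 array (dKO XY replicates 1, 3, 4 and 5, control XY replicates 1, 3, 4 and 5, control XX replicates 2 and 3). The count of rises fell to 2 without control XY replicate 1, 3 or 5 or dKO XY replicate 4, and to 3 without dKO XY replicate 1.

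The comparison of dKO XY with control XX asked how far the gonad without AMH and activin B still differed from an ovary. Here 4 genes were called higher (*Etv5*, *Spry4*, *Dusp6* and *Spred2*) and 1 lower (*Fgf11*), with 1.22% and 1.28% of all clusters (2.5% in all). At the adjusted p alone 12 were higher and 4 lower (7.55% and 7.51%), and 11 higher and 3 lower did not overlap (6.4% and 5.89%). Among clusters above the negative control median in some group, 15.8% were higher and 15.3% lower at the adjusted p. The 4 lower genes were *Fgf11*, *Fgfr1*, *Fgfr2* and *Fgfr3*, and the 12 higher ones included 5 of 7 inhibitors and both measured ETS factors. At the adjusted p in each comparison 5 genes stood above both controls in dKO XY, namely *Fgf9*, *Fgf18*, *Spred2*, *Etv4* and *Etv5*, as did 0.929% of all clusters. This count fell to 1 (*Fgf18*) when replicate 4 of dKO XY or replicate 1, 3 or 5 of control XY was left out, to 2 without replicate 1 of dKO XY, and to 3 without replicate 5 of dKO XY or replicate 4 of control XY. With all arrays, 4 of the 17 genes above the negative control median did so, beside 1.85% of such clusters. The comparisons share arrays and are not independent.

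**Figure D3:**
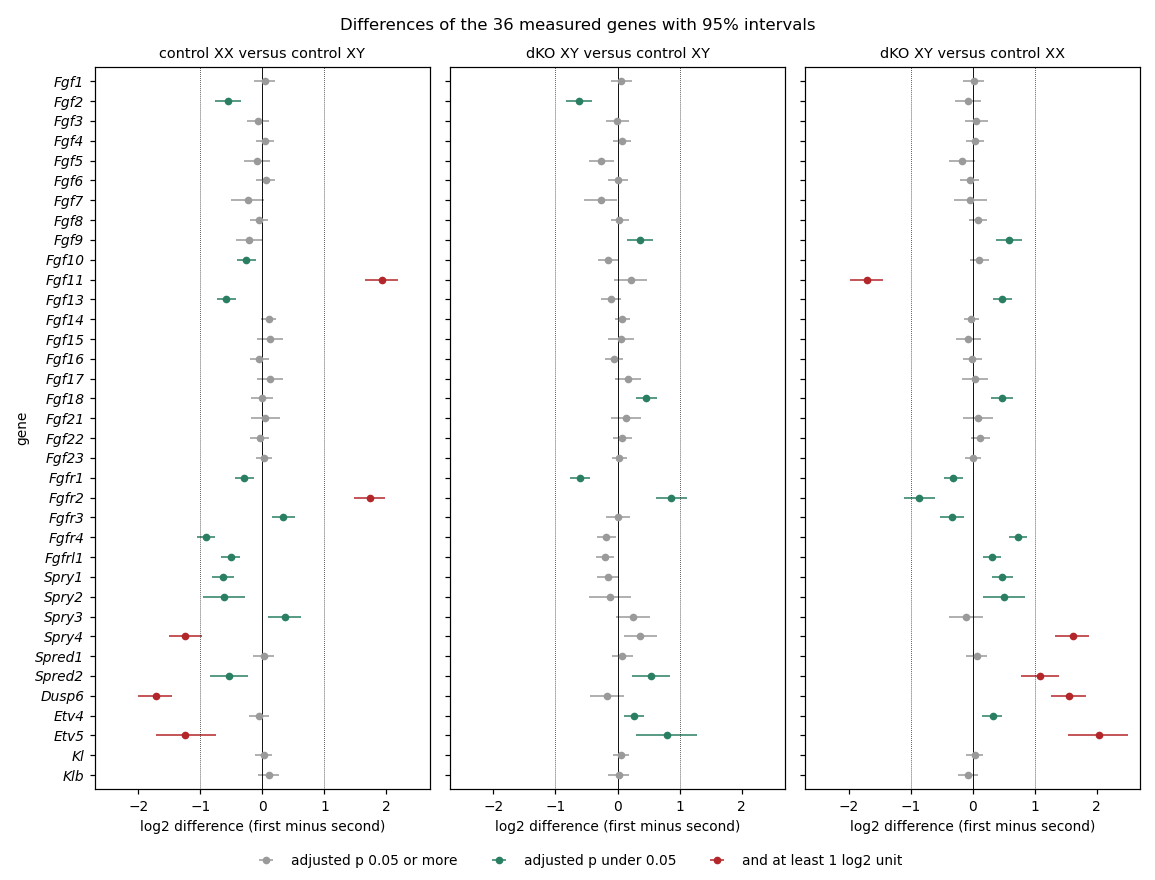
Log2 difference (first group minus second, deposited units, horizontal axis) of the 36 measured genes in each comparison, with 95% intervals from limma. Red points passed the adjusted p and 1 unit, green points the adjusted p alone, and grey points neither. Between dKO XY and control XY no point is red, and *Fgfr2* (0.87) and *Fgf2* (-0.62) are the extremes.

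Levels of several cell type marker lists moved with these groups. Interstitial markers (4 of 5 measured, all 4 above the negative control median in each group) averaged 11.73 to 12.02 over control XY arrays, 9.94 to 10.7 in dKO XY and 9.61 to 10.23 in control XX. *Fgf2* and *Fgfr1* were also lower in dKO XY than control XY. In dKO XY against control XX, *Fgfr1* was lower. In the same comparison 3 of the 4 interstitial markers were higher in dKO XY and 0 lower at the adjusted p. The remaining marker differed by -0.48, with an unadjusted limma p under 0.05. Germ cell markers (6 of 6 measured) averaged 9.49 to 10.29, 10.87 to 11.64 and 10.87 to 11.66, but 3 of the 6 rose between control XY and dKO XY (*Stra8* by 3.18, *Sycp3* by 2.92 and *Dazl* by 1.56) and the other 3 did not pass (*Ddx4* 0.22, *Pou5f1* 0.22 and *Nanos2* -0.06). Surface epithelium markers (4 of 4 measured) averaged 6.58 to 7.16 in control XY, 7.78 to 8.36 for dKO XY and 7.88 to 8.5 for control XX, with 3 of 4 called higher in dKO XY than control XY. Pericyte and smooth muscle markers (4 of 4 measured) averaged 10.67 to 11.05, 9.49 to 10.34 and 8.68 to 9.34, with 3 of 4 lower in that comparison at the adjusted p. Granulosa cell markers averaged 7.97 to 8.38 in dKO XY, between the controls as *Fgfr2* was. Sertoli cell markers averaged 9.86 to 10.14 in dKO XY, against 9.62 to 9.87 in control XY, but did not move together. At the adjusted p 4 rose (*Cldn11* 1.63, *Cst9* 0.99, *Aard* 0.62 and *Gata4* 0.37) and 1 fell (*Dhh* -0.85). *Ptgds* (-0.25), *Sox9* (-0.1) and *Dmrt1* (0.08) did not pass. For all clusters, 4.41% rose and 6.02% fell in dKO XY against control XY at the adjusted p, with 0.567% and 1.62% called. Against control XX, 7.55% of all clusters were higher in dKO XY and 7.51% lower at the adjusted p. The part of the marker shifts in the FGF results was not tested. Markers of the mesonephros and ducts (4 of 5 measured) were low, with averages from 4.96 to 5.32 on all arrays and 0 of 4 above the negative control median in either XY group and 1 in control XX. Endothelial markers (4 of 4) averaged 10.48 to 10.64 in control XY, 10.38 to 10.78 for dKO XY and 9.95 to 10.49 for control XX. Macrophage markers (4 of 4) averaged 6.26 to 6.51, 6.41 to 6.65 and 6.38 to 6.76. Fetal Leydig markers (4 of 5) averaged 16.03 to 16.59, 15.67 to 16.21 and 7.35 to 8.62. Erythroid markers (2 of 5) averaged 8.55 to 9.91, 8.43 to 10.05 and 9.22 to 11.86. Between the XY groups 1 of these genes passed, a fetal Leydig marker that fell. Control XY replicate 2, the array with the highest *Etv5*, *Spred2*, *Etv4* and *Spry2* of its group, had a germ cell average of 10.27, and replicate 3, with *Etv5* at 8.11, had 10.29. It was the highest control XY array in 14 of the 36 genes, and in 24.5% of all clusters.

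The wider pathway was read from 4 lists of other genes in the same fit. In the chain from GADD45G and MAP3K4 to p38, through which the mouse gonad first turns on *Sry*, 1 of 10 genes was called higher in dKO XY than control XY and 0 lower (0.567% and 1.62% of all clusters). At the adjusted p alone 3 rose and 2 fell (4.41% and 6.02% of all clusters). *Gadd45g* was 7.33, 7.66, 7.52, 7.63 and 7.69 in control XY, 8.95, 8.8, 8.83, 8.54 and 8.73 for dKO XY and 7.81, 7.51, 7.53, 7.72 and 7.72 for control XX. All dKO XY arrays exceeded all controls, by 1.2 ± 0.09 units over control XY (limma adjusted p = 8.14e-07) and 1.11 ± 0.09 over control XX (4.43e-07). *Mapk13*, a p38 kinase, had signals of 10.2 to 10.77 in control XY, 9.94 to 10.27 for dKO XY and 7.81 to 8.15 for control XX. It did not pass between dKO XY and control XY (-0.28, limma adjusted p = 0.125). *Mapk14*, another p38 kinase, went the other way, with 9.18 to 9.54 in control XY, 9.85 to 10.31 for dKO XY and 10.51 to 10.81 for control XX. Its rise in dKO XY over control XY passed (0.61, limma adjusted p = 0.000865). The median of this list between dKO XY and control XY was 0.05.

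Proteoglycans and enzymes of heparan sulfate, which bind FGFs and shape their reach, mostly fell where they changed. Of 22 measured genes 1 was called lower in dKO XY than control XY and 0 higher, with a median of -0.15 units. All clusters had 1.62% and 0.567% called. At the adjusted p alone 6 fell and 1 rose, compared with 6.02% and 4.41% of all clusters. Among clusters above the negative control median in some group these shares were 12.4% and 9.72%. *Gpc1*, a membrane-anchored glypican, was 11.27, 10.79, 11.28, 11.26 and 11.07 in control XY, 10.2, 10.02, 9.55, 10.08 and 10.01 for dKO XY and 9.4, 9.4, 9.41, 9.38 and 9.59 for control XX. All dKO XY arrays lay below all control XY arrays, 1 of them within the range of control XX, and it fell by 1.16 ± 0.12 in dKO XY (limma adjusted p = 1.06e-05). *Gpc6*, another glypican, fell by 0.99 ± 0.08 and *Sulf2*, a heparan sulfatase, by 0.81 ± 0.16. *Sulf1*, the sister enzyme, rose by 0.65 ± 0.19, from 11.31 to 12.2 in control XY to 11.99 to 12.6 in dKO XY, with 13.76 to 14.79 in control XX. Between the controls 1 gene was called higher in control XX (*Sulf1*, 2.62) and 5 were called lower (*Sdc4* -2.04, *Gpc1* -1.7, *Gpc3* -1.52, *Gpc6* -1.51 and *Sulf2* -1.37). All clusters had 2.54% and 3.22% called. At the adjusted p alone 4 were higher and 8 lower (10.8% and 13.4% of all clusters).

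Other ERK feedback and target genes did not follow 1 direction. Of 17 genes 0 were called between dKO XY and control XY (median 0.17), although at the adjusted p alone 4 rose (*Dusp5* 0.72, *Errfi1* 0.54, *Dusp4* 0.43 and *Lrig1* 0.32) and 2 fell (*Egr1* -0.6 and *Flrt3* -0.55). Of all clusters 4.41% rose and 6.02% fell. In limma 9 of 17 had an unadjusted p under 0.05, as did 22% of all clusters. Against control XX, *Dusp4*, a nuclear phosphatase of ERK, was called higher in dKO XY (1.29), and *Dusp9* (-1.61) and *Flrt2* (-1.43) were called lower. Between the controls, *Dusp9* (1.69), *Flrt2* (1.53) and *Errfi1* (1.24) were called higher in control XX. *Il17rd*, an inhibitor of FGF receptors also known as SEF, was called lower there (-1.01). Of 14 measured adaptors and kinases of the RAS and MAPK chain, 0 were called between dKO XY and control XY (median 0.04, 5 with an unadjusted p under 0.05). At the adjusted p alone *Rasa1*, a RAS GTPase activator, rose (0.47, limma adjusted p = 0.00371) and *Ptpn11* fell (-0.27, 0.0261). Between the controls *Rasa1* was the single called gene (1.02 higher in control XX).

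**Figure D4:**
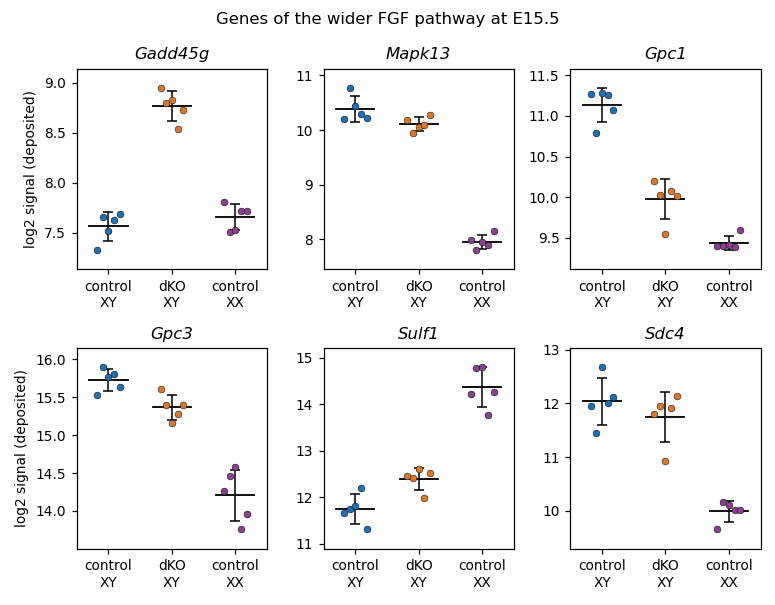
Log2 signal (deposited units, vertical axes not starting at 0) of 6 genes of the wider pathway on the 5 arrays of each group. Points are arrays, lines are means and bars are 1 SD. *Gadd45g* is above both controls in dKO XY (mean 8.77, against 7.57 and 7.66), *Gpc1* and *Sulf1* lie between the controls, and *Mapk13*, *Gpc3* and *Sdc4* separate the XY groups from the ovary.

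Genes tied to FGF9 in the fetal gonad were read beside it. *Sox9*, which FGF9 sustains, had means of 9.99 in control XY, 9.9 for dKO XY and 6.95 for control XX. *Wnt4*, which FGF9 restrains, had means of 8.25, 8.46 and 9.65, and *Cyp26b1*, which clears retinoic acid, 8.64, 8.97 and 6.01. Between dKO XY and control XY, 4 of the 14 genes of this list were called higher (*Stra8* 3.18, *Rspo1* 2.33, *Fst* 2.27 and *Foxl2* 1.08) and 0 lower. All clusters had 0.567% called higher and 1.62% lower. *Dhh*, a Sertoli cell signal, fell under the adjusted p alone (-0.85). *Foxl2* was called although its means, 4.13 in control XY and 5.21 for dKO XY, lay below the negative control median. The 4 called genes are also in the granulosa or germ cell marker lists, and some others of this list are marker genes too. *Nanos2*, a male germ cell gene, had means of 6.34 in control XY, 6.27 for dKO XY and 5 for control XX.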

How the data were processed

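RNA of whole E15.5 gonads was measured on Affymetrix Mouse Transcriptome (Clariom D) arrays, 1 per sample. The deposited values are log2 signals per transcript cluster. The paper names the manufacturer's software for obtaining the data and RMA normalization for the intensities it tested. How the deposited scale was made is not stated in the sources used here. The genome build of the annotation is not given in the sources used here. The labels place all arrays at E15.5, which was used, while the paper's data availability section gives them another age. Of 72688 entries, 6732 control probes were left out of the tests. Genes were named from the platform annotation where a cluster carried 1 symbol (30638 clusters), 2176 carried several and 33142 none.

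Limma 3.58.1 in R 4.3.3 fitted 1 mean per group to all 15 arrays, with moderated two-sided statistics and Benjamini-Hochberg adjustment over 65956 clusters. Differences have standard errors and levels 5 arrays per group, whose number limits the precision. Array medians were 5.17 to 5.33, and each array correlated at 0.991 to 0.995 on average with its group. The script was tested on simulated data. Alternatives were a plain one-way contrast, a second quantile normalization, centred medians, array weights, a replicate block, a filter on dim clusters, no fold threshold, fits of 2 groups, averaged clusters and each array left out.

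The members and lists were chosen with earlier results of these data known. Array values were to be given for called genes and for *Fgf9*, *Fgfr1*, *Fgfr2*, *Dusp6*, *Spry4* and *Etv5*, with up to 8 others that passed the adjusted p as examples and up to 5 called genes per list. Array values or ranges of *Fgf2*, *Fgf13*, *Fgf18*, *Spry1* and *Fgfr4*, and genes of the lists under 1 unit, were added after their values were seen. The counts at the adjusted p alone and above both controls under each alternative were also added then.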

Additional observations from a re-analysis of the deposited data

Results flagged for a closer look

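In 7 of 108 groups of 5 arrays (6.48%) 1 array lay far from the other 4, by a test that flags about 1 in 20 groups by chance. Above the negative control median, *Spry4* on dKO XY replicate 3 was 7.71 (the others 8.07 to 8.18), *Spry1* on control XX replicate 4 was 6.91 (7.18 to 7.26), *Spred1* on control XY replicate 2 was 11.69 (11.25 to 11.34) and *Fgf13* on dKO XY replicate 5 was 6.15 (6.26 to 6.29). Among dim genes, *Etv4* on control XY replicate 2 was 4.78 (4.42 to 4.49), *Fgf1* on control XX replicate 3 was 5.53 (5.14 to 5.25) and *Fgf4* on control XX replicate 5 was 3.7 (3.86 to 3.91).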

How the results depend on the processing

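The counts of called genes were the same under the plain one-way contrast, the second quantile normalization, centred medians, array weights, the dim filter, fits of 2 groups and averaged clusters. With no fold threshold they became 6 higher and 2 lower between dKO XY and control XY, 12 and 4 between dKO XY and control XX, and 4 and 12 between control XX and control XY. With 1 array left out, 0 to 1 genes were called higher and 0 lower in the first comparison, 4 and 1 in the second, and 2 higher and 2 to 3 lower in the third, each change coming from control XY replicate 2. At the adjusted p alone, leaving out 1 array gave 2 to 7 higher and 2 lower, 11 to 12 higher and 3 to 4 lower, and 3 to 4 higher and 12 to 13 lower. With the replicate number as a block, the called counts were unchanged (0 and 0, 4 and 1, 2 and 3), and the counts at the adjusted p alone were 4 and 2, 11 and 3, and 4 and 12. The numbers are not known to pair arrays: same-numbered arrays correlated at -0.19 to -0.041, -0.17 to 0.16 and -0.11 to 0.19 after group means were removed. The rise of *Etv5* over control XY also missed the threshold with the plain contrast, the block and the fit of 2 groups (adjusted p up to 0.0923), and that of *Etv4* with the last 2 of these (up to 0.102). *Spry2* and *Fgfr3* between dKO XY and control XX, and *Spry3* between the controls, were lost under 2 or 3 of these settings. The count of genes above both controls in dKO XY, 5, became 3 with the block or the fit of 2 groups, 4 with the plain contrast and 6 with the quantile normalization or array weights. The dim genes, below the negative control median, limit what the family shows.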
